A study of Mus musculus with 12 samples.

Results

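The 10 genes described here form a set of hypoxia response genes that act outside glycolysis: Adm, Vegfa, Ndrg1, P4ha1, P4ha2, Egln1, Egln3, Bnip3, Ankrd37 and Ddit4. They were chosen by name, with earlier results on these samples known, and all 10 were found among the 18269 genes of the deposited table. The samples were embryoid bodies, the aggregates that mouse embryonic stem cells form when they differentiate in culture, on the C57BL/6 background. The null samples came from line 4C2, in which both copies of Gcn5 (Kat2a), a histone acetyltransferase, are deleted (Gcn5-/-), and were taken at day 5 (3 samples) and day 3 (3 samples). The floxed samples came from line 4_1, which carries loxP-flanked Gcn5 alleles (Gcn5 fx/fx), and were also taken at day 5 (3 samples) and day 3 (3 samples). Each genotype is 1 line, so a difference of genotype and a difference between lines cannot be told apart, and nothing in the labels says that the 3 samples of a group were separate cultures, so p-values measure only the spread between these samples. No oxygen level is given in the labels, and none was compared: the genes are called hypoxia response genes for what they are known for, not for a treatment.

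These genes are known targets of the hypoxia-inducible factors (HIF), dimers of an oxygen-regulated alpha subunit (Hif1a or Epas1) and a constant partner (Arnt). In oxygenated cells, prolyl hydroxylases mark the alpha subunit, the Vhl ubiquitin ligase binds the mark and the subunit is degraded; in low oxygen it persists and binds short DNA motifs near its targets. The targets used here release vascular signals (Adm, Vegfa), hydroxylate collagen (P4ha1, P4ha2), hydroxylate HIF itself in a feedback loop (Egln1, Egln3), remove mitochondria (Bnip3) and restrain mTORC1 (Ddit4). Embryoid bodies are solid aggregates, and hypoxia pathway genes are known to be active in such cultures.

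Upstream sequences of 4 members are shown to set members with a large, a middling and a small difference between the lines beside each other. Each is the 250 bases before a RefSeq transcript start (GRCm38.p6), with the core HIF motif ACGTG or GCGTG, or its reverse complement CACGT or CACGC, in capitals; ACGTG on one strand can overlap CACGT on the other. Adm had the largest difference between the lines at day 5 (chr7:110627407-110627656, forward strand), Bnip3 held 5 matches, the most among the members (chr7:138909507-138909756, reverse strand), P4ha2 held 3 (chr11:54100674-54100923, forward strand), and Vegfa had the smallest difference on both days and no match in its first window (chr17:46032378-46032627, reverse strand).
Adm: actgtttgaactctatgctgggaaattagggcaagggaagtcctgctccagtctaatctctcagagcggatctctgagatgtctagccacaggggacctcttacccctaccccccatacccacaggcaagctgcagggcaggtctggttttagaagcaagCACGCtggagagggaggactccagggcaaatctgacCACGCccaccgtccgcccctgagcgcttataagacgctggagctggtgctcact
Bnip3: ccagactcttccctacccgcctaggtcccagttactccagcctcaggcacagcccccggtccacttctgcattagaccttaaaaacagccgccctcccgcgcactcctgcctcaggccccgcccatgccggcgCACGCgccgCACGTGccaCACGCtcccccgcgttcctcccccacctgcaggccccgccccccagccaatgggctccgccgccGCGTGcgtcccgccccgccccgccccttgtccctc
P4ha2: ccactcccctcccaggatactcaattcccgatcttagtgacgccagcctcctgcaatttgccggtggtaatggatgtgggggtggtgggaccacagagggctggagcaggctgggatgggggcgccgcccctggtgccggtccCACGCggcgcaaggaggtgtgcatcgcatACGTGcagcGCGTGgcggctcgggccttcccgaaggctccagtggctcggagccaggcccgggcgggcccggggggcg
Vegfa: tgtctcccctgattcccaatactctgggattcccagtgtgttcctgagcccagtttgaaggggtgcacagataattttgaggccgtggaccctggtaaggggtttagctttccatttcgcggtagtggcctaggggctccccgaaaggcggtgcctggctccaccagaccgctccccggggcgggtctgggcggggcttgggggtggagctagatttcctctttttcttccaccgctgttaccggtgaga

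A window was matched by symbol for 9 members (all but Ndrg1). In the first window of each, 8 of 9 (88.9%) held at least 1 match and 7 of 9 (77.8%) at least 2, against 55.6% and 26.9% of the first windows of 11860 tested genes. For 46 other known HIF targets, 66.7% of 30 first windows held at least 1 match and 36.7% at least 2. A match is a description of letters and not a binding site, and the described HIF site of Vegfa in human lies farther upstream than such a window. Vegfa also held 2 matches in its second window (chr17:46025164-46025413), but that window lies inside the annotated gene. The first windows of P4ha2 and Ankrd37 lie inside their annotated genes too.

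The table gives normalised read counts, that is read counts divided by 1 factor per sample, and all values below are in this unit unless named otherwise. The recovered libraries held 18022071 to 26803369 reads in the null line and 23090915 to 29446068 in the floxed line. The deleted gene was lower but not at 0 in the null samples: Kat2a averaged 817 ± 67.5 in null and 2207 ± 165 in floxed samples at day 5, and 701 ± 122 in null and 2228 ± 151 in floxed samples at day 3 (SD, n = 3 each). A log2 difference is taken on log2(value + 1) with its standard error (SE) from limma over 17000 tested genes, and "called" means an adjusted p under 0.05 (limma, two-sided, Benjamini-Hochberg over all tested genes). Because the members were chosen with the differences between the lines known, those differences are given as a description, without a test.

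Across the lines, all 10 members had a higher mean in null than in floxed embryoid bodies on both days, from 1.22 times (Vegfa, day 3) to 11.03 times (Adm, day 5) by the ratio of means. The 3 null samples lay above the 3 floxed samples for 10 of 10 members at day 5 and for 8 of 10 at day 3, where Vegfa and Egln3 overlapped; over all tested genes the same holds for 19.8% at day 5 and 14.8% at day 3. In these bulk samples, fewer cells of a type and less RNA per cell cannot be told apart.

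**Figure D1:**
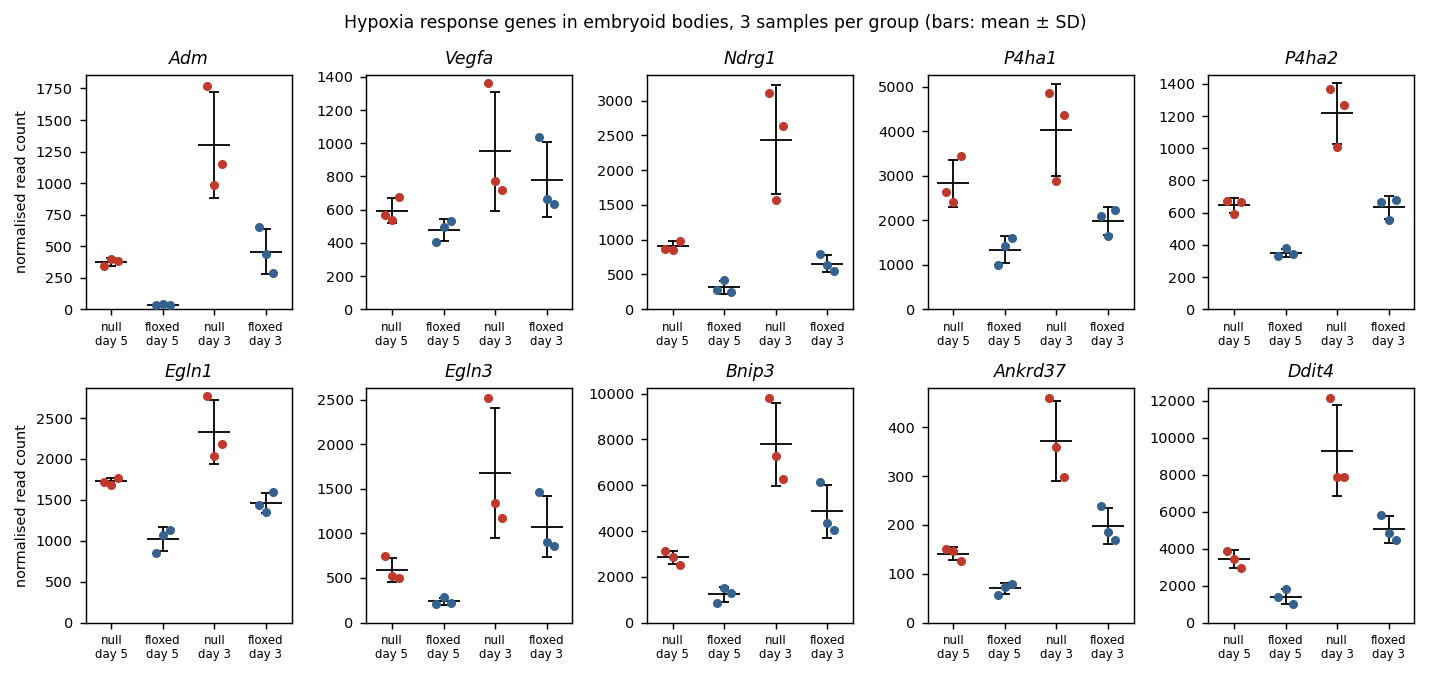
Normalised read counts of the 10 hypoxia response genes in each sample (points), with the mean and SD of each group (bars), n = 3 per group; null in red, floxed in blue. At day 5 every null point lies above every floxed point in each panel, and in null day 3 samples replicate 1 is the highest point for all 10 genes.

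The secreted ligands differed in size between the lines. Adm (ENSMUSG00000030790.14, chr7:110627661-110629820, mm10, forward strand) encodes adrenomedullin, a vasodilator peptide that also acts on vessel growth. At day 5 it was at 341, 396 and 385 in null samples, against 30.2, 41.9 and 29.7 in floxed samples. At day 3 it was at 1773, 983 and 1149 in null samples, against 649, 439 and 286 in floxed samples. The groups did not overlap on either day, and the floxed day 5 values rest on 34 to 50 reads per library. The log2 difference was 3.44 ± 0.27 at day 5, rank 2 from the top among 17000 tested genes, and 1.54 ± 0.27 at day 3, rank 81 (SE, n = 3 per group).

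Vegfa (ENSMUSG00000023951.16, chr17:46016993-46032369, reverse strand) encodes the main growth factor of blood vessels. It was at 566, 537 and 678 in null samples at day 5, against 405, 497 and 529 in floxed samples. Its day 3 values were 1366, 772 and 718 in null samples, against 1040, 667 and 636 in floxed samples. Replicate 1 stood above the other 2 in both lines at day 3, and the groups overlapped there. The log2 differences were 0.32 ± 0.23 at day 5 and 0.26 ± 0.23 at day 3, the smallest of the 10 members on both days, and without null day 3 replicate 1 the day 3 value was -0.031.

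Ndrg1 (ENSMUSG00000005125.12, chr15:66929318-66969640, reverse strand) encodes a stress-responsive protein linked to differentiation and vesicle traffic. In null samples it was at 871, 857 and 987 at day 5, against 278, 416 and 248 in floxed samples. The day 3 values were 3108, 1573 and 2633 in null samples, against 792, 631 and 548 in floxed samples. Every null sample was above every floxed sample within a day, and null day 5 samples were above floxed day 3 samples too. Its log2 difference was 1.56 ± 0.24 at day 5 and 1.85 ± 0.24 at day 3, where it ranked 27 from the top of 17000 genes.

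Of the collagen prolyl 4-hydroxylase alpha subunits, whose product stabilises the collagen triple helix, both were higher in null samples by a similar factor on both days. P4ha1 (ENSMUSG00000019916.14, chr10:59323296-59373304, forward strand) was at 2644, 2414 and 3430 in null samples at day 5, against 996, 1421 and 1602 in floxed samples. At day 3, P4ha1 was at 4865, 2873 and 4357 in null samples, against 2096, 1635 and 2226 in floxed samples. These gave log2 differences of 1.09 ± 0.21 at day 5 and 0.999 ± 0.21 at day 3, with no overlap between the lines.

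P4ha2 (ENSMUSG00000018906.14, chr11:54100095-54131665, forward strand) was at 675, 594 and 664 in null samples at day 5, against 331, 379 and 343 in floxed samples. For day 3 it was at 1370, 1007 and 1271 in null samples, against 665, 551 and 680 in floxed samples. The spread within each group was small beside the gap between the lines, and the log2 differences were 0.87 ± 0.12 at day 5 and 0.94 ± 0.12 at day 3. P4ha2 is the one member on chromosome 11, where the median log2 difference of 1332 tested genes was 0.33 at day 5 and 0.36 at day 3 in the null line; with these medians taken off, P4ha2 differed by 0.55 at day 5 and 0.58 at day 3.

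Both HIF prolyl hydroxylases among the members had higher means in null samples. Egln1 (ENSMUSG00000031987.5, chr8:124908587-124949324, reverse strand), which encodes the main HIF hydroxylase Phd2, was at 1720, 1687 and 1769 in null samples at day 5, against 852, 1073 and 1130 in floxed samples. Its day 3 values were 2774, 2031 and 2179 in null samples, against 1435, 1352 and 1592 in floxed samples. The log2 differences were 0.77 ± 0.12 at day 5 and 0.66 ± 0.12 at day 3, with no overlap. The gap in Egln1 was thus nearly the same size on both days.

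Egln3 (ENSMUSG00000035105.5, chr12:54178981-54203860, reverse strand) encodes Phd3, a strongly hypoxia-inducible hydroxylase. In null samples at day 5 it was at 740, 521 and 496, against 208, 286 and 216 in floxed samples. On day 3 the values were 2515, 1345 and 1176 in null samples, against 1465, 901 and 853 in floxed samples. The day 5 groups were apart, while at day 3 floxed replicate 1 lay above 2 of the 3 null samples. The log2 difference was 1.30 ± 0.27 at day 5 and 0.61 ± 0.27 at day 3.

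Bnip3, a mitochondrial receptor for mitophagy, Ankrd37, a small ankyrin repeat protein, and Ddit4 (Redd1), an inhibitor of mTORC1, were the members nearest to the mean profile of the set over the 12 samples. Bnip3 (ENSMUSG00000078566.8, chr7:138890836-138909519, reverse strand) was at 3118, 2885 and 2526 in null samples at day 5, against 866, 1524 and 1289 in floxed samples. Day 3 gave 9809, 7268 and 6285 in null samples, against 6159, 4346 and 4058 in floxed samples. All null samples were above all floxed samples of the same day, the lowest null sample at day 3 by a narrow margin, and the log2 differences were 1.25 ± 0.21 at day 5 and 0.68 ± 0.21 at day 3.

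Ankrd37 (ENSMUSG00000050914.15, chr8:45996902-46005707, reverse strand) was at 151, 146 and 127 in null samples at day 5, against 56.5, 73.7 and 79.4 in floxed samples. It was at 461, 359 and 298 in null samples at day 3, against 239, 186 and 170 in floxed samples. The groups did not overlap, and the log2 differences were 1.01 ± 0.20 at day 5 and 0.90 ± 0.20 at day 3. Exons of Ufsp2 and Lrp2bp overlap those of Ankrd37 on the opposite strand; the kit keeps the strand, but whether the counting used it is not given in the sources used here, so reads of these genes cannot be told apart with certainty. Ufsp2 averaged 821 ± 47.3 in null and 790 ± 113 in floxed samples at day 5, and 742 ± 16.7 in null and 686 ± 6.61 in floxed samples at day 3. Lrp2bp averaged 17.0 ± 5.82 in null and 3.60 ± 0.85 in floxed samples at day 5, and 9.70 ± 1.08 in null and 5.30 ± 1.94 in floxed samples at day 3 (SD, n = 3 each). The exons of Ndrg1 and Bnip3 also overlap antisense RNAs, which were not analysed here.

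Ddit4 (ENSMUSG00000020108.3, chr10:59949669-59951834, reverse strand) was at 3892, 3445 and 2932 in null samples at day 5, against 1384, 1817 and 1009 in floxed samples. Day 3 values were 12131, 7873 and 7858 in null samples, against 5819, 4838 and 4437 in floxed samples. No floxed sample reached the lowest null sample of its day, and the log2 differences were 1.32 ± 0.21 at day 5 and 0.86 ± 0.21 at day 3.

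**Figure D2:**
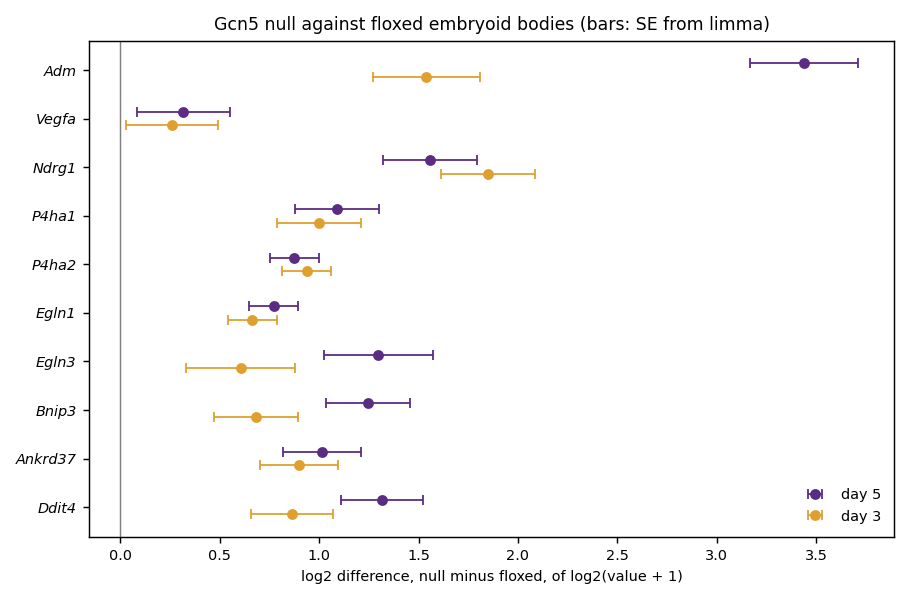
Log2 difference, null minus floxed, of log2(value + 1) for each of the 10 genes at day 5 (purple) and day 3 (yellow); bars are the SE from limma, n = 3 per group. All points lie above 0, Adm at day 5 lies farthest from it at 3.44, and Vegfa lies nearest at 0.32 (day 5) and 0.26 (day 3).

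Over the set, the median log2 difference was 1.17 at day 5 and 0.88 at day 3, against medians of -0.02 and -0.00 over all tested genes. At day 5, 9 of 10 members were called higher in null samples, where 13.0% of all tested genes were, and at day 3, 7 of 10, where 4.09% were. Vegfa was not called on either day, and Egln3 and Bnip3 were not called at day 3. The day 3 count was 4 without null replicate 1 and also 4 without floxed replicate 2. Nothing is read from these counts, since the same differences were known when the genes were put together.

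Within each replicate number, the null sample was above the floxed sample for 10 of 10 members on both days. This repeats the differences the members were chosen with. Replicate 1 was the highest of the null day 3 samples for 10 of 10 members and of the floxed day 3 samples for 7 of 10. Shares over all tested genes were not computed for the counts in this paragraph, so nothing is read from them. Among genes averaging at least 100, deviations of same-numbered samples correlated between the lines at day 3, at 0.49 to 0.60. At day 5, the highest null sample was replicate 1 for 5 members and replicate 3 for 4, and the highest floxed sample was replicate 2 for 6 and replicate 3 for 4. Adm at day 5 was 11.3, 9.45 and 13.0 times as high in null as in floxed samples of the numbers 1, 2 and 3.

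Markers of cell types also differed between the lines at day 5, and their part in the result was not tested. Beside the marker counts, 13.0% of all tested genes were called higher and 13.5% lower at day 5, and 4.09% and 2.03% at day 3. Of 12 pluripotent and epiblast markers, 8 were called lower in null samples at day 5 and none higher, and their summed level was 13554 to 19516 in null and 21250 to 33014 in floxed samples. At day 3, 2 of 12 were called lower, with sums of 46984 to 64977 in null and 54082 to 73076 in floxed samples. Visceral endoderm markers had 1 of 13 called lower at day 5, with sums of 5070 to 10780 in null and 5093 to 20257 in floxed samples, and 0 of 13 called at day 3 (4 of them above 0). Of the 7 endothelial markers tested, 0 were called on either day, and of the 9 fibroblast markers tested 0 were called at day 5 and 1 was called higher at day 3. Fibroblast sums were 1746 to 3715 in null and 1499 to 5306 in floxed samples at day 5, and 315 to 380 in null and 356 to 421 in floxed samples at day 3. Endothelial sums were 699 to 1155 in null and 743 to 1158 in floxed samples at day 5, and 1011 to 1189 in null and 804 to 966 in floxed samples at day 3. Visceral endoderm sums at day 3 were 2376 to 2726 in null and 1048 to 3727 in floxed samples, and no marker in the table had a group mean of 0. Pou5f1, which defines the pluripotent state, was at 1820 ± 472 in null and 3780 ± 1117 in floxed samples at day 5 (SD, n = 3 each).

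Other HIF targets, 46 genes listed from general knowledge, were tested as a wider part of the pathway, and 45 passed the filter on low values. These were not picked for how they moved, but earlier results of these data were known when they were listed. At day 5, 21 of 45 were called higher and 1 lower in null samples, with a median log2 difference of 0.40. At day 3, 14 were called higher and none lower, with a median of 0.48. Over all tested genes, 13.0% were called higher and 13.5% lower at day 5, and 4.09% and 2.03% at day 3. The day 3 count was 7 without null replicate 1, 3 without null replicate 3, 9 without floxed replicate 1 and 7 without floxed replicate 2 or 3.

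Among them, Ndufa4l2, a mitochondrial protein that lowers oxygen use, was at 66.2 ± 12.8 in null and 26.9 ± 9.04 in floxed samples at day 5 (log2 difference 1.30 ± 0.25, adjusted p = 0.00296, limma). Fam162a, a mitochondrial apoptosis factor, was at 1140 ± 108 in null and 680 ± 118 in floxed samples at day 5 (0.75 ± 0.14, adjusted p = 0.00204, limma). Igfbp3, on chromosome 11, a binding protein of insulin-like growth factors, was at 1393 ± 329 in null and 605 ± 144 in floxed samples at day 5 (1.20 ± 0.22, adjusted p = 0.00228, limma). At day 3, Apln, the ligand of the apelin receptor in vessels, was at 201 ± 56.2 in null and 76.6 ± 25.6 in floxed samples (1.39 ± 0.26, adjusted p = 0.00801, limma). Ero1a, an oxidase of the endoplasmic reticulum that acts in disulfide formation, was at 7794 ± 2508 in null and 3801 ± 504 in floxed samples at day 3 (0.997 ± 0.19, adjusted p = 0.00878, limma). Ak4, a mitochondrial adenylate kinase, was at 2229 ± 332 in null and 1388 ± 225 in floxed samples at day 3 (0.69 ± 0.14, adjusted p = 0.0119, limma), and its adjusted p was 0.0516 without null day 3 replicate 3. Narf, on chromosome 11, was called higher on both days, but with the chromosome's median taken off its log2 difference was 0.24 at day 5 (adjusted p = 0.131, limma) and 0.35 at day 3 (adjusted p = 0.109, limma), so that neither call held. The 1 gene called lower at day 5 was Tmem45a, named here after its value was seen.

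Of the 15 genes of the oxygen-sensing machinery itself, 1 was called higher and 3 lower in null samples at day 5, where 13.0% of all tested genes were called higher and 13.5% lower. At day 3, 0 were called by limma, with 6 at an unadjusted p under 0.05, 0 by edgeR, 1 by DESeq2 and 1 with the replicate number as a block. The median log2 difference was -0.04 at day 5 and -0.01 at day 3. Hif1a, the main oxygen-regulated subunit, was at 4628 ± 449 in null and 5059 ± 568 in floxed samples at day 5, and 4801 ± 647 in null and 5671 ± 291 in floxed samples at day 3 (log2 differences -0.13 ± 0.11 and -0.25 ± 0.11). Epas1, the alternative alpha subunit, had 496 ± 65.2 in null and 351 ± 135 in floxed samples at day 5, and 274 ± 83.8 in null and 160 ± 42.8 in floxed samples at day 3 (0.57 ± 0.30 and 0.76 ± 0.30). Neither passed the test, with adjusted p-values by limma of 0.410 and 0.186 for Hif1a and 0.184 and 0.162 for Epas1 at day 5 and day 3.

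Arnt, the shared partner, had log2 differences of 0.20 ± 0.09 at day 5 and 0.16 ± 0.09 at day 3, and Vhl, which binds the hydroxylated subunit, had -0.04 ± 0.09 at day 5 and 0.17 ± 0.09 at day 3. Hif1an, the asparagine hydroxylase of HIF, had 0.11 ± 0.09 at day 5 and 0.20 ± 0.09 at day 3. None of these 3 was called on either day by limma, but Arnt was called at day 5 with the replicate number as a block (adjusted p = 0.0276). Egln2, the HIF prolyl hydroxylase that is not itself induced by hypoxia, lay the other way from Egln1 and Egln3, at 1042 ± 68.3 in null and 1363 ± 91.7 in floxed samples at day 5 (-0.39 ± 0.10, adjusted p = 0.0120, limma). At day 3 Egln2 was at 980 ± 113 in null and 1223 ± 82.8 in floxed samples (-0.32 ± 0.10, adjusted p = 0.0703, limma), and it was called there with the block (adjusted p = 0.0265) and by DESeq2 (0.0308). The other 3 genes called at day 5 were Arnt2, a neural relative of Arnt (-0.70 ± 0.13, adjusted p = 0.00227, limma), Eloc, a part of the Vhl complex (-0.28 ± 0.08, adjusted p = 0.0222, limma), and Cited2, a competitor of HIF for its coactivators (0.58 ± 0.17, adjusted p = 0.0279, limma). The call of Cited2 was lost without null day 5 replicate 1 or 2 or floxed replicate 3 (adjusted p 0.0564, 0.106 and 0.112), and that of Eloc without null replicate 3 or floxed replicate 1 or 3 (adjusted p 0.0675, 0.0669 and 0.0789).

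Partners and paralogs of the members, 24 genes, were mixed in direction, with 7 called higher and 4 lower in null samples at day 5 and 2 higher and 1 lower at day 3, where the block called 5 in all. The shares of all tested genes were 13.0% higher and 13.5% lower at day 5, and 4.09% and 2.03% at day 3. Calcrl, the receptor through which adrenomedullin signals, was at 239 ± 9.32 in null and 132 ± 18.7 in floxed samples at day 5 (log2 difference 0.86 ± 0.16, adjusted p = 0.00220, limma). Ramp1, a coreceptor that directs Calcrl to another peptide, was low, at 29.0 ± 13.6 in null and 2.504 ± 1.45 in floxed samples at day 5 (adjusted p = 0.000457, limma). Vegfc, a lymphatic growth factor and paralog of Vegfa, was lower in null samples at day 5, at 90.01 ± 17.7 against 206 ± 13.97 in floxed samples (-1.20 ± 0.21, adjusted p = 0.00161, limma). Tsc2, through which Ddit4 acts on mTORC1, was at 1425 ± 247 in null and 2459 ± 243 in floxed samples at day 5 (-0.80 ± 0.11, adjusted p = 0.000386, limma), and at 1555 ± 63.6 in null and 2255 ± 80.8 in floxed samples at day 3 (-0.54 ± 0.11, adjusted p = 0.0126, limma). P4hb, the beta subunit that pairs with P4ha1 and P4ha2, and Becn1, a binding partner of Bcl2 proteins, were the 2 genes called higher at day 3 (0.63 ± 0.06, adjusted p = 0.000328, and 0.40 ± 0.08, adjusted p = 0.00990, limma). Both lie on chromosome 11, and with its median taken off they differed by 0.27 and 0.04, with an adjusted p of 0.812 for Becn1 (limma). The call of P4hb held with the median taken off, while that of Becn1 was lost.

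Glycolytic enzymes and transporters, 20 genes that share the HIF pathway with the members, had 11 called higher at day 5 and 5 at day 3, none lower, with medians of 0.46 and 0.31. Aldoc and Slc16a3, called on both days, lie on chromosome 11. Beside the counts in this paragraph, 13.0% of all tested genes were called higher and 13.5% lower at day 5. At day 3 these shares were 4.09% and 2.03%. Ddit4 is known to be induced by the integrated stress response and by p53 too, and genes of both were listed. Of 13 genes of the integrated stress response, a pathway through the factor Atf4, 6 were called lower in null samples at day 5 and none higher, and 0 were called at day 3 by limma, with 5 at an unadjusted p under 0.05, 0 by edgeR, 0 by DESeq2 and 2 with the block. Atf4 itself was at 2230 ± 121 in null and 3483 ± 177 in floxed samples at day 5 (-0.64 ± 0.18, adjusted p = 0.0202, limma), a call that did not hold on leaving out replicate 1 of null day 5 (adjusted p 0.0631) or of floxed day 5 (0.0635). Psat1 (-0.63 ± 0.12, adjusted p = 0.00223, limma), Atf5 (-0.78 ± 0.17, adjusted p = 0.00627, limma) and Asns (-0.44 ± 0.10, adjusted p = 0.00701, limma) were also called lower at day 5. These calls held on leaving out any 1 sample. Of 15 p53 targets, 3 were called higher and 1 lower at day 5, and 1 higher at day 3, where the block called 3. Trp53inp1 (0.88 ± 0.10, adjusted p = 0.000173, limma) and Btg2 (0.56 ± 0.13, adjusted p = 0.00696, limma) were among those called higher at day 5. Both calls held on leaving out any 1 sample. The day 3 gene was Ccng1 on chromosome 11, which was also called at day 5; with the median of that chromosome taken off, its log2 difference was 0.14 at day 5 (adjusted p = 0.299, limma) and 0.00 at day 3 (adjusted p = 0.999, limma), and neither call held. The gene called lower at day 5 was Sesn2, an inhibitor of mTORC1 (-0.41 ± 0.14, adjusted p = 0.0489, limma), and its call did not hold by edgeR (0.0585), with upper-quartile scaling (0.0811), without null day 5 replicate 2 (0.0984) or 3 (0.190, log2 difference -0.27), or without floxed day 5 replicate 1 (0.182) or 2 (0.0808), nor without replicate 1 or 2 of either day 3 group (0.0555 to 0.0604).

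**Figure D3:**
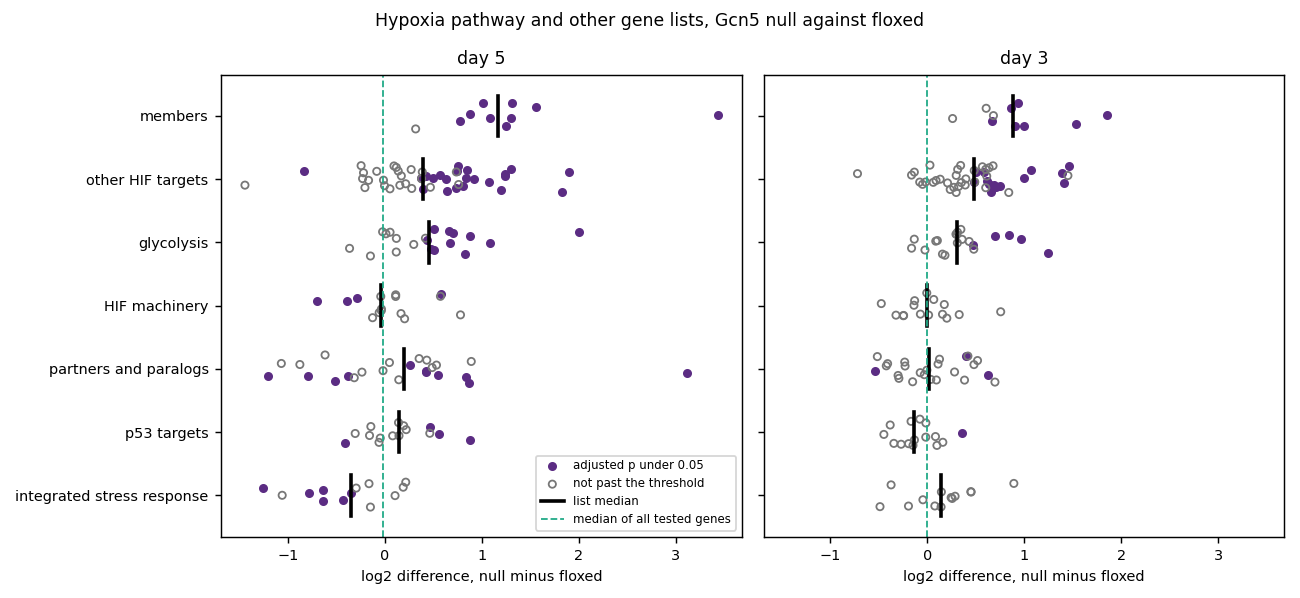
Log2 difference, null minus floxed, of log2(value + 1) for each tested gene (points) of the 10 members and of 6 other gene lists, day 5 left and day 3 right; filled points are called, short bars are list medians and the dashed line is the median of all tested genes. The member median is 1.17 at day 5 and 0.88 at day 3, and the median of the HIF machinery lies near 0 on both days, at -0.04 and -0.01. Its genes lie on both sides of 0, with 7 of 15 above it on each day.

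Between the days, most members fell in both lines, Adm and Egln3 by the most in the floxed line. This comparison is another contrast than the difference between the lines, and it was tested. It uses the same samples, and the genes were chosen with earlier results of these data known. Its counts and p-values are therefore no independent support. In null embryoid bodies, 9 of 10 members were called lower at day 5 than at day 3, where 21.9% of all tested genes were, with a median log2 difference of -1.37 against 0.00 over all genes. In floxed embryoid bodies, 10 of 10 were called lower, where 19.2% of all tested genes were, with a median of -1.29 against 0.00. The day 5 samples lay below the day 3 samples for 9 of 10 members in the null line and 10 of 10 in the floxed line, against 26.3% and 25.9% of all tested genes.

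Adm fell by 1.75 ± 0.27 on the log2 scale in the null line (adjusted p = 0.000236, limma) and fell by 3.65 ± 0.27 in the floxed line (adjusted p = 1.48e-06, limma), where its fall ranked 7 among 17000 genes. At day 5 the null line kept 28.7% of its day 3 mean of Adm and the floxed line 7.42%. Egln3 fell by 1.46 ± 0.27 in the null line (adjusted p = 0.000933, limma) and fell by 2.15 ± 0.27 in the floxed line (adjusted p = 5.97e-05, limma), which left 34.9% and 22.03% of the day 3 mean. Bnip3 fell by 1.43 ± 0.21 in the null line (adjusted p = 0.000168, limma) and fell by 1.998 ± 0.21 in the floxed line (adjusted p = 1.48e-05, limma). For Ddit4 the falls were 1.42 ± 0.21 and 1.87 ± 0.21 (adjusted p = 0.000154 and 2.03e-05, limma). These 4 genes, a vascular ligand, a HIF hydroxylase, a mitophagy receptor and an mTORC1 inhibitor, had the widest gaps between the 2 falls.

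Ankrd37, Ndrg1, P4ha2 and Egln1 fell in both lines as well. Ankrd37 dropped by 1.37 ± 0.20 in the null line and 1.49 ± 0.20 in the floxed line (adjusted p = 0.00013 and 7.26e-05, limma). Ndrg1 dropped by 1.37 ± 0.24 in the null line and 1.08 ± 0.24 in the floxed line (adjusted p = 0.000495 and 0.00261, limma), the reverse order of the members above. P4ha2 fell by 0.91 ± 0.12 in the null line and 0.84 ± 0.12 in the floxed line (adjusted p = 9.74e-05 and 0.000166, limma). Egln1 fell by 0.42 ± 0.12 in the null line and 0.53 ± 0.12 in the floxed line (adjusted p = 0.0145 and 0.00418, limma), and with replicate 1 of null day 3 left out the call in the null line did not hold (adjusted p 0.0702).

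Vegfa and P4ha1, an angiogenic ligand and a collagen hydroxylase, had calls that rested on single libraries. Vegfa fell by 0.62 ± 0.23 in the null line (adjusted p = 0.0436, limma), and the adjusted p was 0.204 without null day 3 replicate 1 (log2 difference -0.33), 0.0997 and 0.125 without null day 5 replicate 1 or 2, and 0.0525 without floxed day 5 replicate 2. In the floxed line Vegfa fell by 0.68 ± 0.23 (adjusted p = 0.0314, limma), with 0.154 without floxed day 3 replicate 1 and 0.107 and 0.0564 without floxed day 5 replicate 1 or 2. P4ha1 did not pass the test in the null line, with a log2 difference of -0.49 ± 0.21 (adjusted p = 0.0763, limma), but it passed with the replicate number as a block (adjusted p = 0.0278), by DESeq2 (0.0401), and without null day 3 replicate 2 (0.0149) or null day 5 replicate 3 (0.0424). In the floxed line P4ha1 fell by 0.58 ± 0.21 (adjusted p = 0.0416, limma), and this call was lost without floxed day 3 replicate 1 (0.118) or 3 (0.117), null day 5 replicate 1 (0.0511), or floxed day 5 replicate 1 (0.177, log2 difference -0.38) or 2 (0.0593).

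**Figure D4:**
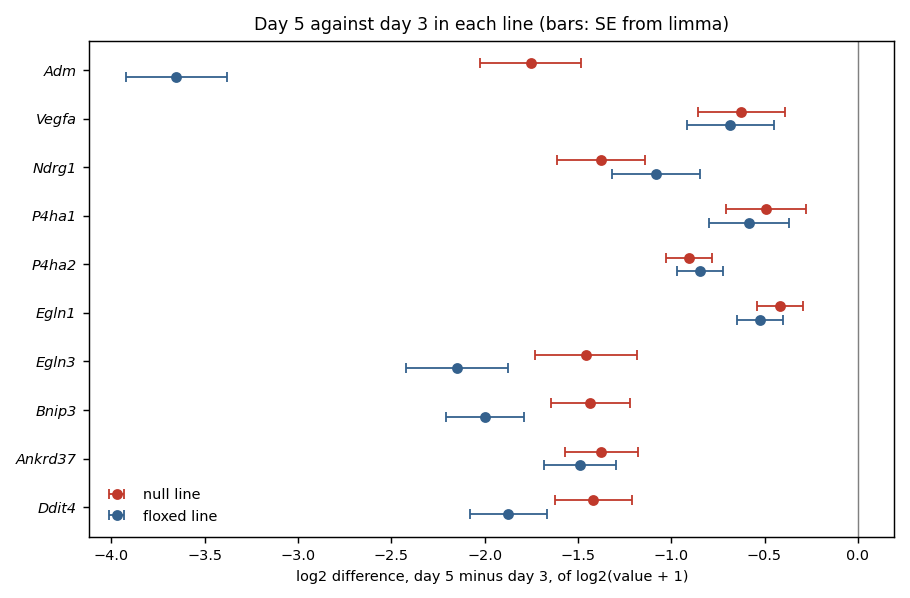
Log2 difference, day 5 minus day 3, of log2(value + 1) for each of the 10 genes in the null line (red) and the floxed line (blue); bars are the SE from limma, n = 3 per group. All points lie below 0, and the points of Adm are farthest apart, at -1.75 in the null line and -3.65 in the floxed line.

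Of the other HIF targets, 8 of 45 were called higher and 17 lower at day 5 in the null line, and 6 higher and 18 lower in the floxed line. Their medians were -0.24 and -0.21. Of all tested genes, 22.6% were called higher and 21.9% lower in the null line, and 22.5% higher and 19.2% lower in the floxed line. Ndufa4l2 fell by 2.47 ± 0.25 in the null line (adjusted p = 1.25e-05, limma) and fell by 3.14 ± 0.25 in the floxed line (adjusted p = 2.41e-06, limma). Kdm4c, a histone demethylase, fell by 1.51 ± 0.14 and 1.49 ± 0.14, and Stc2, a secreted stress protein, by 1.91 ± 0.15 and 1.46 ± 0.15 in the null and floxed lines. Of the 20 glycolysis genes, 15 were called lower and 1 higher in the null line and 16 lower and 1 higher in the floxed line. The machinery was mixed, with 3 called higher and 4 lower in the null line and 5 higher and 4 lower in the floxed line. Cited2 rose by 2.61 ± 0.17 in the null line (adjusted p = 1.35e-06, limma) and 1.56 ± 0.17 in the floxed line (adjusted p = 2.30e-05, limma), and Hif1a had -0.05 ± 0.11 and -0.17 ± 0.11 with no call in either line (adjusted p = 0.736 and 0.221, limma). Pluripotency markers moved with the day as well: 7 of 12 were called lower in each line, while 2 were called higher in the null line and 4 in the floxed line, and 10 of 13 visceral endoderm markers in the null line and 12 of 13 in the floxed line were called higher. The part of these cell types in the members' fall was not tested.

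Whether the gap between the lines changed with the day was read from the interaction, which holds the differences the members were chosen on and is therefore a description. It was 1.90 ± 0.38 on the log2 scale for Adm, 0.69 ± 0.39 for Egln3, 0.56 ± 0.30 for Bnip3, 0.45 ± 0.29 for Ddit4 and -0.29 ± 0.33 for Ndrg1, where a positive value means a wider gap at day 5. By limma, 0 of 10 members were called, with 1 at an unadjusted p under 0.05, where 0.476% of all tested genes were called. That member was Adm, which lay just past the threshold (adjusted p = 0.0509, limma). By edgeR 0 were called, by DESeq2 1 and with the replicate number as a block 1, in each case Adm. Without floxed day 3 replicate 3 or floxed day 5 replicate 2, limma also called 1, again Adm.

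The level of null samples at day 5 was also set beside that of floxed samples at day 3, as values of groups that differ in both line and day. The null day 5 samples were all above the floxed day 3 samples for Ndrg1, P4ha1 and Egln1. They overlapped for Adm, Vegfa and P4ha2, and they were all below for Egln3, Bnip3, Ankrd37 and Ddit4. The share over all tested genes was not computed for this pair of groups, so nothing is read from this order. Levels compared between genes per kilobase of exon put Ddit4, Bnip3 and P4ha1 at ranks 1, 2 and 3 in all 4 groups. Ddit4 had 1950 normalised reads per kilobase in null and 800 in floxed samples at day 5, and 5292 in null and 2867 in floxed samples at day 3. Adm changed its place most: its rank among the 10 was 5 in null and 10 in floxed samples at day 5, with 231 and 20.96 normalised reads per kilobase, and 4 in null and 6 in floxed samples at day 3, with 804 and 283.

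The mean profile of the members over the 12 samples, centred on the log2 scale, was compared with each of 11317 genes of at least 100 reads in a group by root-mean-square distance. Of the members themselves, Ankrd37 lay nearest at 0.173 and Adm farthest at 1.07. Outside the lists, the 5 nearest genes were Pgm1 (0.233), which interconverts glucose phosphates for glycogen, Susd5 (0.249), H2-Ab1 (0.249), a class II antigen presentation chain, Ppp1r3b (0.253), a glycogen-targeting phosphatase subunit, and Ybx2 (0.254), a germ cell RNA-binding protein. On the other lists, the lactate exporter Slc16a3 (0.189) and Ero1a (0.214) lay nearer than any of these 5. Ybx2 and Slc16a3 lie on chromosome 11, whose median was not taken off for these distances. Pgm1 averaged 2798 ± 148 in null and 1152 ± 142 in floxed samples at day 5, and 5175 ± 477 in null and 3761 ± 169 in floxed samples at day 3 (SD, n = 3 each).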

How the data were processed

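Stranded total RNA libraries (8 cycles of PCR, per the labels' protocols) of 12 embryoid body samples were analysed. The deposited table holds a signal per gene that the authors made as read counts divided by 1 size factor per sample; 100% of its values were whole reads after multiplying by that factor (tolerance 0.01). Per the submitters' processing notes, the build was mm10, and the tools, with no roles given, were DESeq 1.16.0, HTSeq 0.6.0, TopHat2 2.0.10 and CASAVA 1.8.2. Of the gene IDs, 18199 were matched to GENCODE M21 symbols and 70 were not, and Ero1a was matched through its older symbol Ero1l.

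A gene was tested where 1 or more groups averaged 10 or higher (17000 genes; 1269 fell below), and the fit was made with limma 3.58.1 (R 4.3.3), trend on log2(value + 1), 4 group means over 12 samples with 8 residual and 5.00 prior degrees of freedom. The test was checked on simulated data. Alternatives were edgeR 4.0.16 quasi-likelihood and DESeq2 1.42.0 on the recovered reads, other pseudocounts and scaling, no filter, a chromosome 11 centring, only the 2 groups compared, leaving out samples, and the replicate number as a block. The whole-read test with edgeR called 1007 genes at day 3 and 4490 at day 5 between the lines. The SD and SE values describe the spread between samples only. The reads carry no molecular identifiers.

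Groups and replicate numbers are from the sample titles. The design text speaks of duplicates, while the labels give 3 samples per group. Within each group no 2 libraries were near copies, and libraries of different groups were not compared for this. Deviations of same-numbered samples correlated at 0.49 to 0.60 between the lines at day 3, 0.31 to 0.54 at day 5 and 0.30 to 0.40 between days in the null line, which met the rule for pairing (every pair over 0.1), and at 0.07 to 0.27 between days in the floxed line, which did not. The reported fit leaves the replicate number out, and the pairing was run only as the alternative with the block. The members and lists were chosen with earlier results of these data known. Genes named beside the members are at most 4 called genes of smallest p per list and comparison, 6 HIF machinery genes, and the 5 genes nearest in profile. Of the fibroblast list, 10 of 12 markers were used, and of the endothelial list 7 of 8.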

Additional observations from a re-analysis of the deposited data

Results flagged for a closer look

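In 3 genes of the comparison lists, none of them a member, the difference between the lines at day 5 was itself different from that at day 3 by the interaction term of limma. Btg2, an antiproliferative p53 target, had an interaction of 1.01 on the log2 scale (adjusted p = 0.0345, limma), with 2676 ± 128 in null and 1822 ± 176 in floxed samples at day 5 and 993 ± 88.7 in null and 1371 ± 281 in floxed samples at day 3 (SD, n = 3 each). Trp53inp1, a p53 target of the stress response, had 0.80 (adjusted p = 0.0368, limma), with 10505 ± 385 in null and 5767 ± 1057 in floxed samples at day 5 and 8288 ± 541 in null and 7816 ± 359 in floxed samples at day 3. Psat1, an enzyme of serine synthesis and Atf4 target, had -0.92 (adjusted p = 0.0353, limma), with 3373 ± 198 in null and 5237 ± 384 in floxed samples at day 5 and 7933 ± 898 in null and 6542 ± 1095 in floxed samples at day 3. Each of the 3 calls was lost without null day 3 replicate 1 or 2, floxed day 3 replicate 1 or 2, any of the null day 5 replicates, or floxed day 5 replicate 3. Leaving out floxed day 5 replicate 1 also ended the calls of Btg2 and Psat1, and leaving out replicate 2 that of Trp53inp1. Adjusted p-values were then 0.052 to 0.0905 for Btg2, 0.0544 to 0.0989 for Trp53inp1 and 0.0508 to 0.0905 for Psat1.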

How the results depend on the processing

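Among the 10 members, the values under single alternatives kept their direction and their side of the threshold in 1113 cases, lost a call in 46, gained one in 13 and changed sign in 18. Leaving out 1 sample, or 1 replicate number in every group (an alternative chosen after seeing the data), left 2 to 8 of the 7 members called between the lines at day 3, 0 to 1 of the 0 in the interaction, and for the other HIF targets 1 to 15 of 14 at day 3, 5 to 25 of 22 at day 5, 16 to 25 of 25 between days in the null line, and 0 in every such case in the interaction. The interaction count of members was 1 with no filter, with upper-quartile scaling, by DESeq2 and with the replicate block, and that of the other HIF targets was 2 by DESeq2 and 1 with the replicate block; the cause was not tested. Among the members, the pairing by replicate number also gave a call to P4ha1 between days in the null line (log2 value -0.49), which made 10 of 10, and changed no other call of a member. The lowest and highest log2 values with samples left out, where the sign changed, were -0.031 to 0.48 for Vegfa between the lines at day 3, and in the interaction -0.17 to 0.35 for Vegfa, -0.14 to 0.24 for P4ha1, -0.19 to 0.033 for P4ha2, -0.016 to 0.24 for Egln1, -0.059 to 0.28 for Ankrd37, -0.54 to 0.057 for Epas1, -0.017 to 0.14 for Arnt, -0.16 to 0.0058 for Egln2 and -0.16 to 0.0059 for Hif1an. Vhl between the lines at day 5 ranged from -0.11 to 0.055 and was 0.0091 with upper-quartile scaling, and between days in the null line Hif1a ranged from -0.13 to 0.059 and Egln2 from -0.0027 to 0.16. Over all tested genes, the day 3 count between the lines was 1041 in the reported fit, 458 with chromosome 11 centred, 647 with only the 2 groups compared, 1703 by DESeq2 and 1866 with the block, and 79 to 1133 with samples left out. The interaction count was 81 in the reported fit, 511 by DESeq2, 443 with the block and 0 to 115 with samples left out; the day 5 count between the lines was 1620 to 4557, and between days 4263 to 7759 in the null line and 4091 to 7159 in the floxed line, against 4509, 7571 and 7094. The split of calls at day 5 was 2574 higher and 1792 lower with upper-quartile scaling, against 2217 and 2292. With 34 to 50 reads of Adm in a floxed day 5 library, its level there rests on the fewest reads of the members.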
